A study of Mus musculus with 8 samples.

Results

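The 39 genes described here make, break down and carry amino acids, or make creatine, and were measured in whole mouse pancreas. They were taken by gene symbol from a fixed list and sorted by role: 2 genes of creatine synthesis, 14 of amino acid synthesis and nitrogen transfer, 11 of serine, methionine and one-carbon metabolism and 12 transporters. All 39 were found, on 40 of the 36448 entries of the expression tables, because Glud1 stands on 2 overlapping gene IDs. The study compared 4 pancreases labelled Ptf1a-Cre +/KI; Gata6 lox/lox with 4 controls labelled Ptf1a-Cre +/KI, from mice aged 6 to 8 weeks of mixed strain. Every mouse thus carried a Cre recombinase knocked in at Ptf1a, which pancreatic progenitors and later acinar cells express, and only the first group carried floxed alleles of the zinc finger transcription factor Gata6. This Cre acts in cells that express Ptf1a and in their descendants, so other cells of the organ would keep an intact Gata6. The question is what targeting Gata6 in the pancreas goes with in the adult organ. Poly(A) RNA was sequenced, and levels are given as rescaled FPKM, which is the deposited Cufflinks FPKM (fragments per kilobase of transcript, scaled for depth) divided by 100000. This scale is per transcript length, so levels of different genes can be set side by side, but it is not tied to a fixed library size.

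Acinar cells of the exocrine pancreas make and export large amounts of digestive enzyme and take up amino acids at a high rate for it. Some amino acids are made in the cell: serine from a glycolytic intermediate, proline from glutamate, asparagine from aspartate, with nitrogen moved between carbon skeletons by aminotransferases. Serine and methionine also feed the one-carbon cycle, in which S-adenosylmethionine donates methyl groups and homocysteine is recycled or passed on to cysteine. The pancreas is also known as a site of creatine synthesis, which begins with arginine and glycine and ends with a methylation.

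The targeted gene was examined first. Gata6 (ENSMUSG00000005836) had 4.81, 5.12, 4.90 and 4.12 rescaled FPKM in the libraries labelled lox/lox and 2.76, 2.12, 2.62 and 2.45 in controls 1 to 4, so it was higher in the labelled group (log2 fold change 0.72, SE 0.11, limma adjusted p = 0.0443; exact two-sided permutation p = 0.0286, the smallest that 4 against 4 can give). That call was kept in 3 of 23 other settings (without labelled library 4, with sample weights, and with the Glud1 entries summed) and lost in the other 20, with adjusted p from 0.0159 to 0.631 over the 23. Gene-level values take in every exon and do not resolve the floxed part, so they do not check the deletion, and each direction below is a direction between libraries as labelled. Fragments implied by the deposited intervals came to 4813745 to 7450220 in the labelled libraries and 6023236 to 7306276 in the controls, without 8 enzyme genes that lack an estimate. Titles began with BKD in labelled libraries 1, 3 and 4 and control 1, with BSH in labelled library 2 and with ASK in controls 2 to 4, so prefix was partly confounded with genotype. Markers of acinar cells, 13 in number, summed to 2190, 161400, 28630 and 210600 rescaled FPKM in labelled libraries 1 to 4, while the controls had 301700 to 435000, and none was at 0. Labelled libraries 1 and 3 thus stood apart from labelled libraries 2 and 4.

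No member passed the test, and most members had lower values in the libraries labelled lox/lox. Of the 40 entries, 35 had a mean of at least 1 rescaled FPKM and were tested, and 0 of these reached an adjusted p of 0.05 in limma with Benjamini-Hochberg adjustment over 11860 genes; the smallest was 0.0631, for Ass1. Over all genes tested, 0.194% were called lower and 0.219% higher. At an unadjusted p of 0.05, 20 of 35 members were lower and 2 were higher, which is 57.1% and 5.71%, beside 12.2% and 17.9% of all genes tested. In 17 members every labelled library lay below every control, and in 2 every one lay above, which is 48.6% and 5.71%, beside 7.62% and 10.9% of all genes. The members' median log2 fold change was -0.94 against 0.10 for all genes, and 31 of 35 members lay below the all-gene median. Each tested member had a mean above the minimum in both groups, so none entered the test through its higher group alone.

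The fold changes of members depended on how the libraries were scaled. Median-ratio scaling set the libraries to a common median ratio over genes, and quantile normalization gave them a common distribution of values. The members' median was then -1.13 and -0.84, with 31 and 30 of 35 negative, beside -0.04 and -0.03 for all genes. Equal-sum scaling brought the libraries to an equal sum over all genes but the 13 acinar markers and the 8 enzyme genes without an estimate. Fragment-total scaling brought them to an equal implied fragment total. For every gene alike, these divided labelled library 1 by 0.293 and 0.294, and control 2 by 1.905 and 1.741. The median-ratio factors of these libraries were 1.228 and 1.004. Under equal-sum and fragment-total scaling the members' median turned to 0.14 and 0.36, while the median of all genes moved to 0.96 and 1.16. Under these scalings 30 and 29 of 35 members lay below the all-gene median. The calls also depended on single libraries. Without labelled library 4, 21 members were called, 19 lower and 2 higher, beside 10.1% and 11.5% of all genes. With each library weighted by its spread, 25 were called, 23 lower and 2 higher, beside 12.5% and 19.5% of all genes. Without labelled libraries 1 and 3 together no member was called, and 30 of 35 still had a negative log2 fold change, with a median of -0.47. Within the BKD titles (3 labelled libraries and 1 control) the members' median was -1.17 with 31 of 35 negative, and within the ASK and BSH titles (1 labelled library and 3 controls) it was -0.59 with 29 negative.

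**Figure D1:**
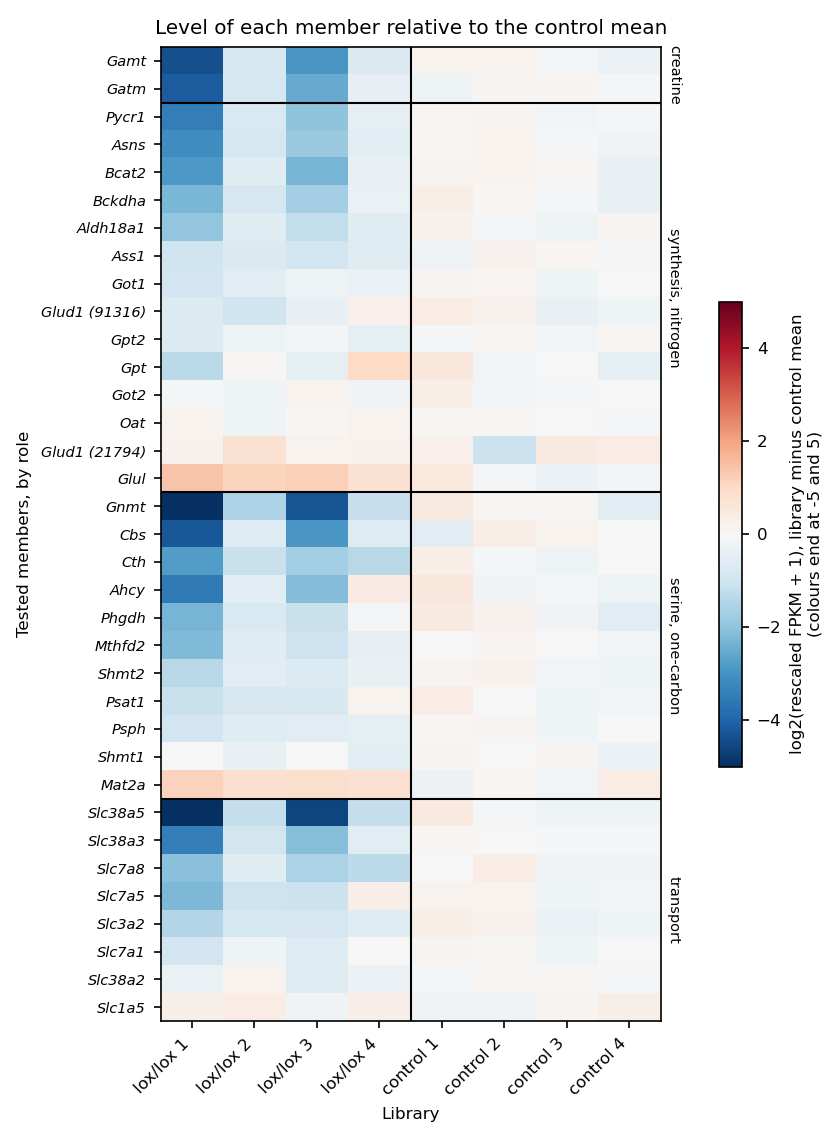
Level of the 35 tested entries in each library, by role, as log2(rescaled FPKM + 1) minus the control mean; columns are labelled libraries 1 to 4 and then controls 1 to 4, and colours end at -5 and 5. Labelled library 1 was the lowest library in 26 of 35 entries (25.3% of all genes), while Glul and Mat2a lay above every control in all 4 labelled libraries.

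The labelled libraries were ordered alike in many members. Summed over all members, the level was 306.8, 835.5, 450.7 and 1050 rescaled FPKM in labelled libraries 1 to 4, against 1489, 1444, 1284 and 1177 in controls 1 to 4. Labelled library 1 was the lowest of the 8 in 26 of 35 members, beside 25.3% of all genes, and the order 1, 3, 2, 4 from low to high held in 19 members, or 54.3%, beside 13.4% of all genes. The same order held in 11 of 13 acinar markers. Members that lay below every control numbered 28, 29, 27 and 21 of 35 in labelled libraries 1 to 4, where 30.4%, 28.9%, 25.9% and 18.3% of all genes did.

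Marker genes of several cell types also differed between the groups. The median log2 fold change was -2.94 over the acinar list, where 12 of 13 markers were negative and none called; Ctrc, the exception at 1.18, has a failed estimate in 5 libraries. The adipocyte, macrophage and fibroblast lists had higher summed levels in every labelled library than in any control. The 8 adipocyte markers, of which 2 were called higher, had a median of 1.84 and summed to 408.7 to 557.1 rescaled FPKM in the labelled libraries, against 90.53 to 235.4 in the controls. The 9 macrophage markers had a median of 1.59 and summed to 214.6 to 835.3 in the labelled libraries, against 104.1 to 162.3 in the controls. The 8 fibroblast markers had a median of 1.39 and summed to 333.3 to 1253 in the labelled libraries, against 206.5 to 284.3 in the controls. None of these 3 lists had a marker at 0. The summed levels of the other lists overlapped between the groups, with medians of 0.03 for duct, 0.78 for islet, 0.93 for lymphocyte and -0.16 for endothelial markers. Cd3g of the lymphocyte list and Apoa1, Serpina1a and Fgb of the liver list were at 0 in at least 1 library. In whole tissue, fewer cells of a type and less RNA per cell cannot be told apart, and the part of cell make-up in the members' values was not tested.

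**Figure D2:**
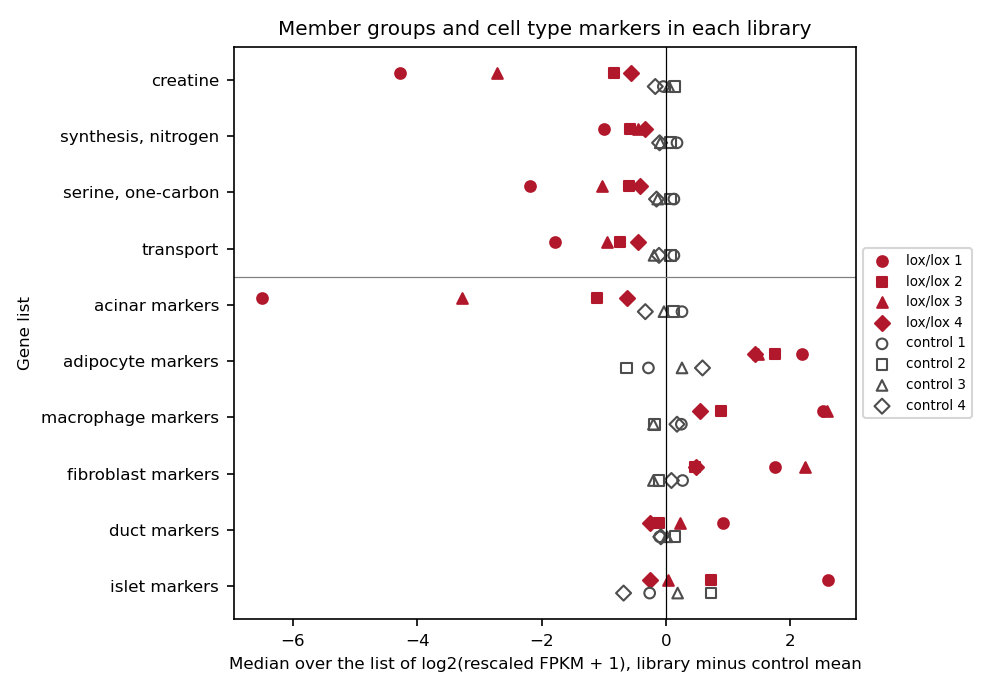
Median over each list of log2(rescaled FPKM + 1) minus the control mean, 1 point per library (filled, labelled lox/lox; open, controls), for the 4 role groups above the line and 6 marker lists below it. The creatine, serine and transport genes and the acinar markers share the order 1, 3, 2, 4 among the labelled libraries, with acinar medians of -6.50, -3.28, -1.11 and -0.62. The synthesis genes have the order 1, 2, 3, 4.

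The 2 genes of creatine synthesis were among the most abundant members in the controls and were lower in all 4 libraries labelled lox/lox. Gatm (ENSMUSG00000027199, chr2:122420203-122437039 on mm9) encodes glycine amidinotransferase, which joins arginine and glycine into the creatine precursor guanidinoacetate. It had 7.25, 81.1, 24.98 and 111.0 rescaled FPKM in labelled libraries 1 to 4, against 122.7, 164.2, 163.7 and 143.5 in controls 1 to 4. Every labelled library lay below every control, with labelled libraries 1 and 3 far below labelled libraries 2 and 4. The means were 56.1 ± 48.3 in the labelled libraries and 148.5 ± 19.8 in the controls (SD, n = 4 each), and the log2 fold change was -1.99 (SE 0.75, limma adjusted p = 0.135).

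Gamt (ENSMUSG00000020150, chr10:79720896-79723757) encodes guanidinoacetate methyltransferase, which completes creatine with a methyl group from S-adenosylmethionine. It had 5.22, 73.1, 16.4 and 78.0 rescaled FPKM in labelled libraries 1 to 4, against 147.5, 143.9, 124.5 and 104.9 in controls 1 to 4. The groups again did not overlap, and labelled libraries 1 and 3 were again the low ones (log2 fold change -2.21, SE 0.77, limma adjusted p = 0.124). Without labelled library 4 both genes were called, Gatm at -2.51 (limma adjusted p = 0.0453) and Gamt at -2.70 (0.0459). Without labelled libraries 1 and 3 their log2 fold changes were -0.63 and -0.77. Equal-sum scaling gave -0.89 and -1.12, and fragment-total scaling -0.61 and -0.85. Among BKD titles they were -2.10 and -2.86, and among ASK and BSH titles -0.94 and -0.75.

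The ratio of Gatm to Gamt, which does not depend on library scale, was 1.39, 1.11, 1.52 and 1.42 in labelled libraries 1 to 4 and 0.831, 1.14, 1.31 and 1.37 in controls 1 to 4. These ranges overlap, although the levels of the 2 genes spread widely. Of 5 other creatine genes 3 were tested and none was called. Ckb, the brain type creatine kinase, had 10.7, 2.21, 7.80 and 1.92 rescaled FPKM in the labelled libraries against 0.914, 2.91, 0.935 and 1.05 in the controls, which overlap (log2 1.26). The creatine transporter Slc6a8 stood at log2 0.60 and the mitochondrial kinase Ckmt1 at -0.26, a sign that turned positive under the equal-sum and fragment-total scalings.

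Genes of amino acid synthesis and nitrogen transfer had a median log2 fold change of -0.49 over 14 tested entries, 11 negative and 3 positive. After equal-sum and fragment-total scaling it was 0.50 and 0.73, beside 0.96 and 1.16 for all genes. No entry of the group passed the test. At an unadjusted p of 0.05, 8 were lower and 1 higher, beside 12.2% and 17.9% of all genes tested. In 5 every labelled library lay below every control, beside 7.62% of all genes. Genes of proline and asparagine synthesis and of branched-chain amino acid breakdown had the most negative values, and Glul had the most positive. The per-library medians were -0.99, -0.58, -0.44 and -0.33 in labelled libraries 1 to 4, a narrower span than for the creatine genes. The group's median was -0.65 within BKD titles and -0.52 within ASK and BSH titles.

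Asns (ENSMUSG00000029752, chr6:7625169-7643254) encodes asparagine synthetase, which moves the amide nitrogen of glutamine onto aspartate. It was the most abundant member in the controls, at rank 291 of 11860 genes, with 17.8, 88.3, 44.6 and 109.9 rescaled FPKM in labelled libraries 1 to 4 against 170.9, 182.3, 154.4 and 142.2 in controls 1 to 4. Even the highest labelled library lay below the lowest control. The means were 65.2 ± 41.7 in the labelled libraries and 162.5 ± 17.7 in the controls (SD, n = 4 each), with a log2 fold change of -1.59 (SE 0.52, limma adjusted p = 0.117). It was -0.47 and -0.20 after equal-sum and fragment-total scaling, and -0.71 without labelled libraries 1 and 3.

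Pycr1 (ENSMUSG00000025140, chr11:120497026-120505083) encodes the mitochondrial reductase of the last step to proline. It had 2.00, 18.1, 7.06 and 23.3 rescaled FPKM in labelled libraries 1 to 4, against 33.6, 35.4, 28.5 and 29.8 in controls 1 to 4. The groups did not overlap (log2 fold change -1.67, SE 0.59, limma adjusted p = 0.127; -0.66 and -0.40 after the same scalings). Aldh18a1, which makes the precursor of both proline and ornithine from glutamate, also did not overlap, at 4.26 to 12.5 in the labelled libraries and 16.1 to 22.5 in the controls (log2 -1.10); its sign turned to 0.20 under the fragment-total scaling. Oat, which links that precursor to ornithine, was nearly level in rescaled FPKM. It had 8.90 to 12.2 in the labelled libraries and 9.71 to 11.1 in the controls (log2 0.06, or 1.11 and 1.36 after the same scalings).

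**Figure D3:**
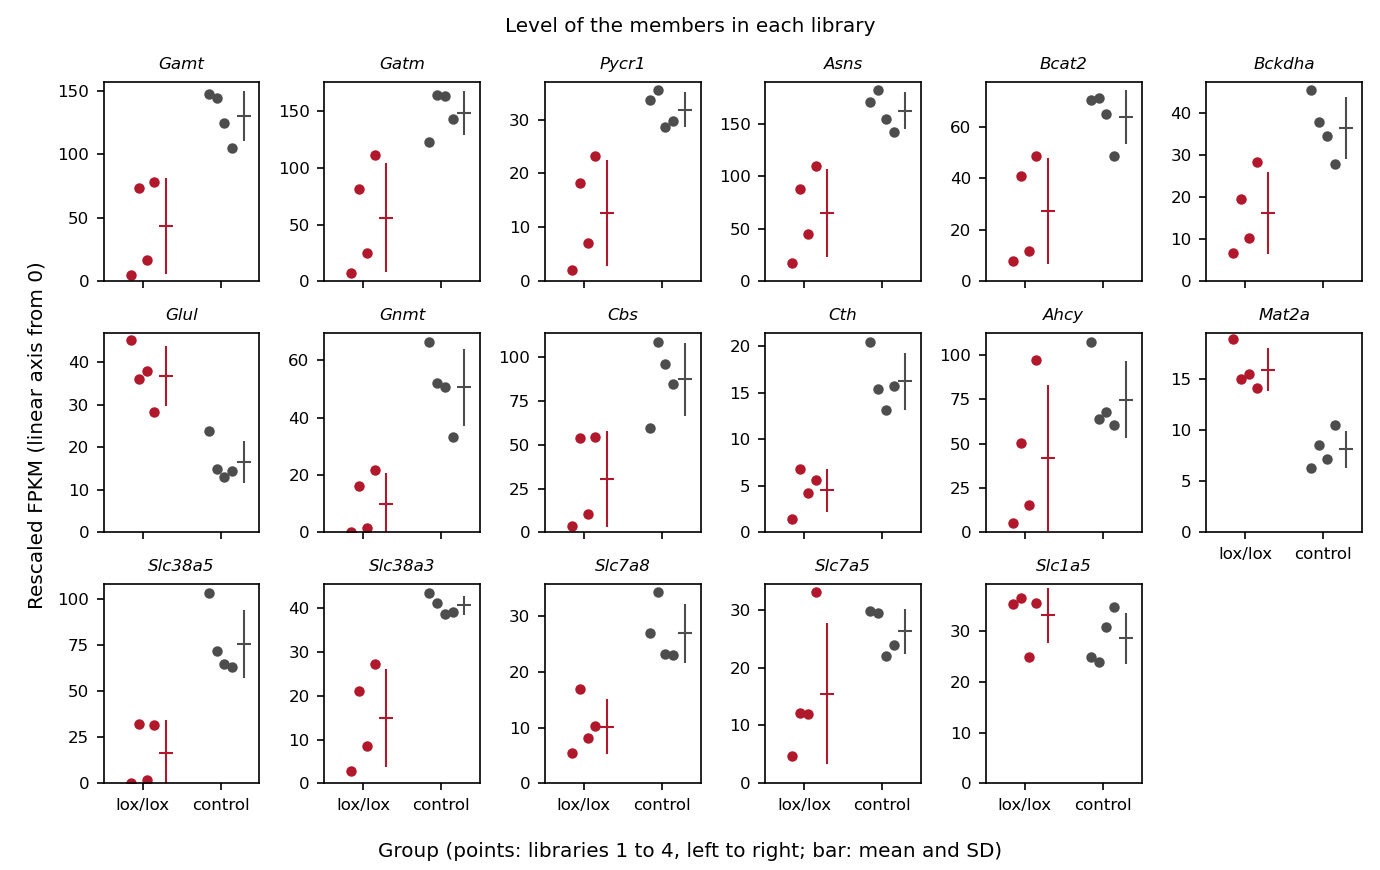
Rescaled FPKM (linear axes from 0) of 17 members in each library, with labelled lox/lox libraries 1 to 4 left of controls 1 to 4; the bar beside the points is mean and SD, and SD bars that pass below 0 end at the axis. Labelled libraries 1 and 3 sit lowest in most panels, Glul and Mat2a show the labelled group above the controls, and the groups overlap in Bcat2, Bckdha, Ahcy, Slc7a5 and Slc1a5.

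Branched-chain amino acids are first stripped of nitrogen by an aminotransferase and then oxidised by a mitochondrial dehydrogenase complex. Bcat2 (ENSMUSG00000030826, chr7:52825523-52845080), the mitochondrial aminotransferase, had 7.64, 40.8, 11.9 and 48.9 rescaled FPKM in labelled libraries 1 to 4, against 70.3, 71.1, 65.2 and 48.5 in controls 1 to 4. Labelled library 4 was just above control 4, so the groups overlapped by that pair alone (log2 fold change -1.55, SE 0.56, limma adjusted p = 0.128; -0.45 and -0.19 after equal-sum and fragment-total scaling). Bckdha (ENSMUSG00000060376, chr7:26414871-26443780), a subunit of the dehydrogenase, had 6.62, 19.6, 10.3 and 28.4 in labelled libraries 1 to 4, against 45.7, 38.1, 34.7 and 27.9 in controls 1 to 4. The same pair of libraries overlapped there (log2 fold change -1.29, SE 0.41, limma adjusted p = 0.114), and the value was -0.21 and 0.05 after these scalings.

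Bcat1, the cytosolic aminotransferase, was too low to test, at 0.118 to 0.758 rescaled FPKM in the labelled libraries and 0.0105 to 0.154 in the controls, with 0.0793 to 3.54 implied fragments behind each value. The ratio of Bcat2 to Bcat1 was 17.4, 346, 28.1 and 64.4 in labelled libraries 1 to 4 and 4230, 460, 428 and 4600 in controls 1 to 4. These ranges did not overlap, but so few Bcat1 fragments leave the size of the ratio unknown. Bckdk, the kinase that switches the dehydrogenase off, had 15.6, 59.3, 27.7 and 75.0 in the labelled libraries against 117.5, 92.7, 83.3 and 85.6 in the controls, with no overlap (log2 -1.30; 0.08 under the fragment-total scaling).

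Glul (ENSMUSG00000026473, chr1:155747074-155756853) encodes glutamine synthetase, which fixes ammonia onto glutamate, and had higher values in the labelled group. It had 45.3, 36.0, 37.9 and 28.2 rescaled FPKM in labelled libraries 1 to 4, against 23.8, 14.9, 12.9 and 14.5 in controls 1 to 4. The lowest labelled library lay above the highest control, and labelled library 1, lowest for most members, was the highest here. The means were 36.9 ± 7.02 in the labelled libraries and 16.5 ± 4.91 in the controls (SD, n = 4 each), and the log2 fold change was 1.13 (SE 0.23, limma adjusted p = 0.0849). Without labelled library 4 it was called (log2 1.25, limma adjusted p = 0.0347), and the values were 0.60 among BKD titles and 1.29 among ASK and BSH titles. Equal-sum and fragment-total scaling gave 2.22 and 2.49.

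Glud1, glutamate dehydrogenase, stands on 2 gene IDs whose intervals on chromosome 14 nearly coincide, and the share of each entry varied between libraries. The entry ENSMUSG00000021794 (chr14:35123915-35158330) had 12.5, 19.0, 12.2 and 12.8 rescaled FPKM in labelled libraries 1 to 4, against 13.0, 4.61, 14.8 and 14.2 in controls 1 to 4. Its log2 fold change was 0.34 (SE 0.34, limma adjusted p = 0.489), and that of the other entry was -0.46. Summed, the entries gave 31.7, 34.3, 36.0 and 50.6 in the labelled libraries and 54.3, 41.7, 38.9 and 41.6 in the controls, which overlap. The summed log2 fold change was -0.22, so the sign of a single Glud1 entry is uncertain.

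Ass1, argininosuccinate synthase of the urea and arginine pathway, had the smallest adjusted p of any member. It had 3.07, 3.94, 3.23 and 4.37 rescaled FPKM in labelled libraries 1 to 4, against 5.96, 8.56, 7.75 and 6.79 in controls 1 to 4. The groups did not overlap, and the labelled libraries lay close together (log2 fold change -0.83, SE 0.15, limma adjusted p = 0.0631). Under the equal-sum and fragment-total scalings its sign turned, to 0.14 and 0.36.

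The aminotransferases of aspartate and alanine come in cytosolic and mitochondrial forms. Got1, the cytosolic aspartate enzyme, had 2.19 to 4.18 rescaled FPKM in the labelled libraries and 4.43 to 5.78 in the controls, without overlap (log2 -0.53, turning to 0.39 and 0.62 under the 2 scalings). Got2, the mitochondrial one, had 6.96 to 9.42 in the labelled libraries and 7.29 to 10.2 in the controls (log2 -0.08). The ratio of Got2 to Got1 was 3.47, 2.12, 2.26 and 1.79 in labelled libraries 1 to 4 and 1.77, 1.28, 1.70 and 1.60 in controls 1 to 4, so every labelled library lay above every control, labelled library 4 only just. Gpt and Gpt2, the cytosolic and mitochondrial alanine enzymes, stood at log2 -0.20 and -0.38. Gpt had 4.07, 12.6, 8.40 and 24.7 rescaled FPKM in labelled libraries 1 to 4, against 18.4, 10.8, 12.2 and 8.56 in controls 1 to 4, so the labelled libraries held both the lowest and the highest value. Gpt2 had 3.96 to 6.24 in the labelled libraries and 6.21 to 7.46 in the controls, which overlap, and the ratio of Gpt2 to Gpt overlapped as well. The signs of Got2, Gpt and Gpt2 also turned positive under the 2 scalings.

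Of 25 other genes of synthesis, the urea cycle and breakdown, 17 were tested, with a median of -0.56 and none called. At an unadjusted p of 0.05, 8 were lower and 0 higher, beside 12.2% and 17.9% of all genes tested. Gls2, a mitochondrial glutaminase, had 1.49, 22.5, 3.99 and 35.7 rescaled FPKM in labelled libraries 1 to 4, against 33.0, 32.4, 33.9 and 30.7 in controls 1 to 4 (log2 -1.72). Labelled library 4 was the highest of all 8 for Gls2, so these groups overlapped.

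Promoter sequence was examined because Asns, Pycr1 and others of these genes are known targets of ATF4, a factor of the amino acid response that binds C/EBP-ATF elements. The motif TGATGNAA, on either strand, was searched in windows from 250 bases before to 50 after each transcription start in RefSeq annotation of GRCm38.p6. Of the 39 genes, 33 had windows, 37 in all, and 4 windows (10.8%) held the motif, beside 3.97% of all 32851 windows. The GATA motif AGATAA was in 1 window (2.70%), that of Slc3a1, beside 11.2% of all windows, and no member's window held both motifs. A match is a description of letters and not evidence of binding. The 4 windows with TGATGNAA are shown around the match, 5′ to 3′ on the gene's strand, with the matched letters in capitals; where these read TTGCATCA the match is on the other strand. They are Asns (chr6:7693185-7693272, minus strand), Pycr1 (chr11:120643804-120643891, minus strand), Got1 (chr19:43524660-43524747, minus strand) and Slc7a11 (chr3:50443613-50443719, minus strand), all on GRCm38.p6.
Asns: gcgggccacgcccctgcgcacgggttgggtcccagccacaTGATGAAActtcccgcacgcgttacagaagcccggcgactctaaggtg
Pycr1: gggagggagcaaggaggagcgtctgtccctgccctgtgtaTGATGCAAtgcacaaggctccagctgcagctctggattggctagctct
Got1: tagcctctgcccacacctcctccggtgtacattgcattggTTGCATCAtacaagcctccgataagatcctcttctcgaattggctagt
Slc7a11: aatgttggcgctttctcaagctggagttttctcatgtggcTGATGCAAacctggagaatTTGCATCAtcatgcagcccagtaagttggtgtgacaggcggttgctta

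The matches lie at -23 from the start in Asns, -103 in Pycr1, -102 in Got1 and -66 and -47 in Slc7a11, which holds 2 matches facing each other. All 4 genes had lower values in every labelled library than in any control, and Slc7a11 was too low to test. The same held in 17 of all 35 tested members (48.6%) and in 7.62% of all genes tested. Whether the motif bears on these values was not tested. Gpt, Slc1a5, Slc7a5, Slc38a1, Cth and Slc38a3 were not among the genes with windows. Of 15 regulators and readouts of the ATF4 axis, all tested, none was called and the median log2 fold change was 0.16. At an unadjusted p of 0.05, 3 were lower and 3 higher, beside 12.2% and 17.9% of all genes tested. Fgf21, a hormone gene, stood at -1.37, Chac1, a glutathione-degrading enzyme, at -1.34 and the stress factor Atf3 at 1.23. Atf4 itself, singled out after its values were seen, had 26.6, 45.4, 44.6 and 45.2 rescaled FPKM in labelled libraries 1 to 4, against 62.0, 59.3, 64.1 and 62.1 in controls 1 to 4, without overlap (log2 -0.63, limma adjusted p = 0.123).

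Genes of serine, methionine and one-carbon metabolism showed a median log2 fold change of -1.06. After equal-sum and fragment-total scaling it was 0.05 and 0.32, beside 0.96 and 1.16 for all genes. All 11 genes of the group were tested and none passed. At an unadjusted p of 0.05, 6 were lower and 1 higher, beside 12.2% and 17.9% of all genes tested. In 6 every labelled library lay below every control, beside 7.62% of all genes. The enzymes that spend S-adenosylmethionine and carry its sulphur on to cysteine had the most negative values, and Mat2a, which makes S-adenosylmethionine, had the one positive value. Per-library medians were -2.19, -0.59, -1.02 and -0.42 in labelled libraries 1 to 4. The group's median was -0.64 without labelled library 1, -1.23 within BKD titles and -0.59 within ASK and BSH titles.

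Gnmt (ENSMUSG00000002769, chr17:46862613-46866117) encodes glycine N-methyltransferase, which uses up S-adenosylmethionine by methylating glycine. It had 0.266, 16.2, 1.54 and 21.8 rescaled FPKM in labelled libraries 1 to 4, against 66.3, 52.0, 50.7 and 33.2 in controls 1 to 4. The groups did not overlap, and labelled libraries 1 and 3 were close to the bottom of the scale, with as few as 4.54 implied fragments behind a value. Mean levels were 9.96 ± 10.7 in the labelled libraries and 50.6 ± 13.6 in the controls (SD, n = 4 each), and the log2 fold change was -3.07 (SE 0.89, limma adjusted p = 0.106). It was -4.01 among BKD titles, -1.40 among ASK and BSH titles and -1.34 once labelled libraries 1 and 3 were left out; equal-sum and fragment-total scaling gave -2.28 and -2.05.

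Mat2a (ENSMUSG00000053907, chr6:72382793-72389552) encodes the methionine adenosyltransferase of tissues outside the liver. It had 18.9, 15.1, 15.6 and 14.1 rescaled FPKM in labelled libraries 1 to 4, against 6.27, 8.52, 7.21 and 10.5 in controls 1 to 4. All labelled libraries lay above all controls and close to each other (log2 fold change 0.90, SE 0.18, limma adjusted p = 0.0808). It was called without labelled library 4 (log2 0.96, limma adjusted p = 0.0360), and stood at 1.23 among BKD titles and 0.73 among ASK and BSH titles. Equal-sum and fragment-total scaling gave 1.95 and 2.19. Its paralog Mat1a, the form best known from liver, had 0.972, 6.65, 3.74 and 11.2 in the labelled libraries against 26.6, 23.2, 15.96 and 14.5 in the controls, also without overlap (log2 -1.91, limma adjusted p = 0.103). In rescaled FPKM, Mat2a thus lay above Mat1a in all 4 labelled libraries and below it in all 4 controls.

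Ahcy (ENSMUSG00000027597, chr2:154885046-154900233) encodes the hydrolase that clears the S-adenosylhomocysteine left by methylations. It had 5.43, 50.2, 15.3 and 97.1 rescaled FPKM in labelled libraries 1 to 4, against 107.4, 64.0, 68.1 and 60.4 in controls 1 to 4. Labelled library 4 was above 3 of the 4 controls, so the groups overlapped (log2 fold change -1.46, SE 0.77, limma adjusted p = 0.221). Without labelled libraries 1 and 3 the log2 fold change was -0.06, and after equal-sum and fragment-total scaling it was -0.38 and -0.11.

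Cbs and Cth carry the sulphur of homocysteine to cysteine. Cbs (ENSMUSG00000024039, chr17:31749568-31774144), cystathionine beta-synthase, had 3.53, 53.7, 10.4 and 54.4 rescaled FPKM in labelled libraries 1 to 4, against 59.9, 108.9, 96.3 and 84.9 in controls 1 to 4. The groups did not overlap (log2 fold change -2.12, SE 0.78, limma adjusted p = 0.131), but the value of labelled library 2 carries the status of a failed estimate. Cth (ENSMUSG00000028179, chr3:157557212-157588041), cystathionine gamma-lyase, had 1.43, 6.80, 4.26 and 5.58 in labelled libraries 1 to 4, against 20.5, 15.4, 13.2 and 15.8 in controls 1 to 4. These groups did not overlap either, and labelled library 1 was again the lowest (log2 fold change -1.75, SE 0.35, limma adjusted p = 0.0808), and the value was -1.25 without labelled libraries 1 and 3. After equal-sum and fragment-total scaling Cbs stood at -1.06 and -0.79, and Cth at -0.79 and -0.54.

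Serine is made from 3-phosphoglycerate in 3 steps. Phgdh, the dehydrogenase of the first, had 14.6 to 73.7 rescaled FPKM in the labelled libraries and 53.3 to 104.2 in the controls (log2 -1.06), and Psat1, the aminotransferase of the second, had 7.06 to 18.3 in the labelled libraries and 13.8 to 21.4 in the controls (log2 -0.64). Both overlapped between the groups. Psph, the phosphatase of the last step, did not overlap, at 1.796 to 2.973 in the labelled libraries and 3.73 to 4.92 in the controls (log2 -0.64, limma adjusted p = 0.0885). All 3 had positive values under the equal-sum and fragment-total scalings, from 0.05 to 0.67.

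The mitochondrial one-carbon enzymes Shmt2, which splits serine into glycine and a folate-bound carbon, and Mthfd2, which oxidises that carbon, were lower without overlap. Shmt2 had 2.83 to 6.80 rescaled FPKM in the labelled libraries and 7.67 to 10.8 in the controls (log2 -0.75), and Mthfd2 had 4.63 to 18.2 in the labelled libraries and 22.3 to 27.0 in the controls (log2 -1.06). Under the equal-sum scaling these became 0.24 and 0.00, and under the fragment-total scaling 0.48 and 0.26. Shmt1, the cytosolic counterpart, had 1.25 to 2.31 in the labelled libraries and 1.63 to 2.58 in the controls (log2 -0.22, positive under both scalings), and the ratio of Shmt2 to Shmt1 overlapped. Of 22 other genes of this metabolism 12 were tested, with a median of -0.50 and none called. At an unadjusted p of 0.05, 6 were lower and 1 higher, beside 12.2% and 17.9% of all genes tested. After Mat1a the largest values were those of Aldh1l2 (-1.69) and Aldh1l1 (-1.31), the mitochondrial and cytosolic dehydrogenases that burn off surplus folate-bound carbon.

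**Figure D4:**
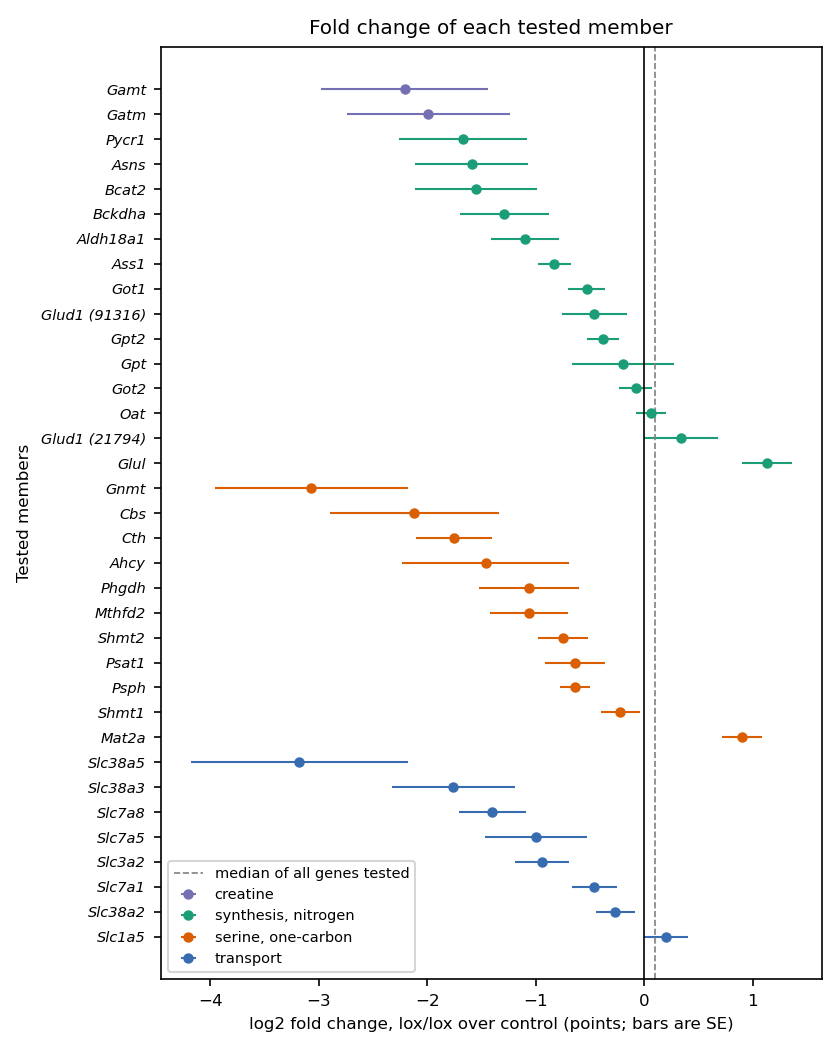
Log2 fold change, lox/lox-labelled over control, on the log2(rescaled FPKM + 1) scale for the 35 tested entries by role, with bars for the SE; the dashed line is the median of all genes tested, 0.10. Values run from -3.18 for Slc38a5 to 1.13 for Glul, and 31 of 35 lie below the dashed line. Signs of many negative values, that of Bckdha (-1.29) among them, turn positive under the equal-sum or the fragment-total scaling. The median of all genes moves to 0.96 and 1.16 under these scalings, and 30 and 29 of 35 entries lie below it.

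Of the 12 transporters 8 were tested, and their median log2 fold change was -0.97. After equal-sum and fragment-total scaling it was 0.11 and 0.38, beside 0.96 and 1.16 for all genes. No transporter passed. At an unadjusted p of 0.05, 4 were lower and 0 higher, beside 12.2% and 17.9% of all genes tested. In these 4 every labelled library lay below every control, beside 7.62% of all genes. The glutamine carriers Slc38a5 and Slc38a3 and the exchanger Slc7a8 had the most negative values. The related carrier Slc38a2 was less negative, and the glutamine exchanger Slc1a5 was level before those scalings. Per-library medians were -1.78, -0.74, -0.95 and -0.44 in labelled libraries 1 to 4, and the group's median was -1.22 within BKD titles and -0.69 within ASK and BSH titles.

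Slc38a5 (ENSMUSG00000031170, chrX:7848259-7857305) encodes SNAT5, a carrier of glutamine, asparagine, serine and glycine. It had 0.436, 32.2, 2.09 and 31.5 rescaled FPKM in labelled libraries 1 to 4, against 103.1, 71.7, 64.6 and 63.2 in controls 1 to 4. No labelled library reached the lowest control, and labelled libraries 1 and 3 were near 0, with as few as 5.53 implied fragments behind a value. Mean levels were 16.6 ± 17.7 in the labelled libraries and 75.6 ± 18.7 in the controls (SD, n = 4 each), and the log2 fold change of -3.18 (SE 1.00, limma adjusted p = 0.114) was the most negative of any member. Within title prefixes it was -4.31 (BKD) and -1.02 (ASK and BSH), and it was -1.19 without labelled libraries 1 and 3. Equal-sum and fragment-total scaling gave -2.32 and -2.08.

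Slc38a3 (ENSMUSG00000010064, chr9:107552970-107569705) encodes the related carrier SNAT3. It had 2.87, 21.0, 8.47 and 27.3 rescaled FPKM in labelled libraries 1 to 4, against 43.6, 41.2, 38.7 and 39.1 in controls 1 to 4. The controls were tight and the labelled libraries spread widely below them (log2 fold change -1.76, SE 0.57, limma adjusted p = 0.115; -0.72 and -0.45 after equal-sum and fragment-total scaling). Slc38a2, the SNAT2 carrier known to be induced when amino acids run short, had 8.89 to 16.1 in the labelled libraries and 13.1 to 15.1 in the controls (log2 -0.27, or 0.79 and 1.05 after equal-sum and fragment-total scaling). Slc38a1, the SNAT1 carrier, was untested at 0.558 to 1.78 in the labelled libraries and 0.394 to 0.752 in the controls.

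Slc7a5 and Slc7a8 are light chains of heterodimeric exchangers of large neutral amino acids, and both pair with the heavy chain Slc3a2. Slc7a8 (ENSMUSG00000022180, chr14:55341053-55400723) had 5.48, 16.9, 8.11 and 10.3 rescaled FPKM in labelled libraries 1 to 4, against 27.0, 34.3, 23.1 and 23.1 in controls 1 to 4. The groups did not overlap (log2 fold change -1.40, SE 0.31, limma adjusted p = 0.0879; -0.33 and -0.07 after equal-sum and fragment-total scaling), and Slc7a8 was the one member called without labelled library 2 (log2 -1.66, limma adjusted p = 0.0457). Slc7a5 (ENSMUSG00000040010, chr8:124405052-124431594) had 4.78, 12.2, 11.9 and 33.0 in labelled libraries 1 to 4, against 29.8, 29.4, 22.0 and 24.0 in controls 1 to 4. Its groups overlapped because labelled library 4 was the highest of all 8 (log2 fold change -1.0, SE 0.47, limma adjusted p = 0.183), and it was 0.06 and 0.32 after equal-sum and fragment-total scaling.

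The heavy chain Slc3a2 had 17.5 to 32.7 rescaled FPKM in the labelled libraries and 39.8 to 62.4 in the controls, without overlap (log2 -0.94, turning to 0.17 and 0.44 under those scalings). The ratio of Slc7a5 to Slc7a8 was 0.874, 0.722, 1.47 and 3.21 in labelled libraries 1 to 4 and 1.10, 0.857, 0.952 and 1.04 in controls 1 to 4. It spread both above and below the controls. The other heavy chain, Slc3a1, and the large neutral amino acid carrier Slc43a1 were too low to test. Slc3a1 had at most 0.0980 in any library and was listed at 0 in 2 of them. Slc43a1 had 0.808 to 1.27 in the labelled libraries and 0.257 to 0.536 in the controls, without overlap, with as few as 0.760 implied fragments behind a value.

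Slc7a11, the light chain that exchanges cystine for glutamate, was also too low to test, at 0.543, 0.694, 0.594 and 0.280 rescaled FPKM in labelled libraries 1 to 4 and 0.911, 1.83, 1.23 and 1.40 in controls 1 to 4. Every labelled library lay below every control. The arginine and lysine carrier Slc7a1 had 2.00 to 4.81 in the labelled libraries and 4.08 to 5.49 in the controls, which overlap (log2 -0.46, turning to 0.44 and 0.66 under those scalings).

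Slc1a5 (ENSMUSG00000001918, chr7:17366695-17383623) encodes ASCT2, an exchanger of glutamine and small neutral amino acids. It had 35.3, 36.5, 24.9 and 35.6 rescaled FPKM in labelled libraries 1 to 4, against 24.9, 23.9, 30.8 and 34.6 in controls 1 to 4. The groups overlapped (log2 fold change 0.20, SE 0.20, limma adjusted p = 0.486), and the value was 1.31 and 1.58 after equal-sum and fragment-total scaling. Before these scalings Slc1a5 was the one tested transporter with a positive value, and labelled library 3 was its lowest labelled library.

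Of 32 other amino acid transporters, on 33 entries, 23 entries were tested, with a median of -0.03 and none called. At an unadjusted p of 0.05, 5 were lower and 3 higher, beside 12.2% and 17.9% of all genes tested. Slc7a10, an exchanger of small neutral amino acids, had 7.88, 4.86, 2.68 and 2.82 rescaled FPKM in labelled libraries 1 to 4, against 0.334, 0.525, 2.68 and 2.13 in controls 1 to 4 (log2 1.24); labelled library 3 and control 3 were equal at this precision. The glycine carrier Slc6a9 had 6.62, 35.6, 20.3 and 32.0 in the labelled libraries against 38.1, 41.9, 44.98 and 44.99 in the controls, without overlap (log2 -1.05, or 0.04 and 0.31 after equal-sum and fragment-total scaling). Slc7a4 stood at log2 -0.90, which turned to 0.20 under the fragment-total scaling.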

How the data were processed

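Poly(A) RNA of 8 whole pancreases (4 per group) had integrity numbers of 7.1 to 8.8 and was run on an Illumina Genome Analyzer IIx, as the labels' protocols state. Per the submitters' processing notes, the tools were CASAVA 1.8, TopHat2 2.0.4 with Bowtie, and Cufflinks 2.0.1, with builds mm9 and NCBIM37; no source used here gives the read length, strand, annotation release or scaling option. The authors deposited 1 table of Cufflinks FPKM with interval bounds per sample. The deposited FPKM summed to 2.34e+10 to 1.86e+11 per sample, so all values were divided by 100000 (rescaled FPKM). Entries sharing a gene ID (14 IDs) were summed, and 8 digestive enzyme genes whose estimate is missing in a library (status HIDATA, listed at 0) were left out. The tables hold no counts. Implied fragments are the squared ratio of FPKM to its interval's SE. They describe depth and set the fragment-total scaling, which thus rests on interval widths and not on counts.

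The test was limma's (version 3.58.1, R 4.3.3) on log2(rescaled FPKM + 1) for the 11860 genes whose mean reached 1, with an intensity trend, two-sided, Benjamini-Hochberg adjusted at 0.05; fold changes on this scale understate those of low genes. P-values measure only the spread between these samples, each taken as 1 mouse by its title. Cufflinks splits shared fragments by likelihood, so paralogs and overlapping genes are uncertain. Members, roles, other lists and markers were chosen with earlier results of these data known, so lists carry no test. Named genes were those of largest positive and negative log2 fold change per role (up to 2 and 4), Gata6, and the 3 largest of each other list, of which 1 is not reported here; Ass1, Got1 and Aldh18a1 are given in more detail after their values were seen. On simulated data of 11860 genes with the residual spread of this comparison the test recovered 50% of true log2 changes of 1 and 82% of 2. The simulation drew genes independently, with the same spread in both groups and changes only in genes above a minimum level. In many members the labelled libraries spread more widely than the controls, so these shares need not hold for members. Alternatives numbered 23, plus 1 chosen after the data were seen (Glud1 entries summed). The promoter sequences are from RefSeq, GRCm38.p6.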

Additional observations from a re-analysis of the deposited data

Results flagged for a closer look

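In 3 of 70 groups of 4 values tested, 1 library stood far from the other 3; chance flags about 1 in 20 groups. Glud1 (ENSMUSG00000021794) was at 18.96 rescaled FPKM in labelled library 2, above the 12.15 to 12.77 of the other labelled libraries. The same entry was at 4.61 in control 2, below the 12.97 to 14.81 of the other controls. The sum of both overlapping Glud1 entries was 34.34 in labelled library 2, within the 31.72 to 50.57 of the other labelled libraries, and 41.67 in control 2, within the 38.86 to 54.31 of the other controls. Slc1a5 was at 24.93 in labelled library 3, below the 35.29 to 36.52 of the other labelled libraries.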

How the results depend on the processing

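The count of members called, 0, became 25 with sample weights and ranged from 0 to 21 on leaving out each library in turn; it was 0 in the other settings. Equal-sum scaling moved the medians of synthesis, serine and transport genes to 0.50, 0.05 and 0.11, and implied fragment totals to 0.73, 0.32 and 0.38. Without labelled libraries 1 and 3 the serine and transport medians were -0.47 and -0.55, the serine median was -0.64 without labelled library 1 alone, and without an expression minimum the transport median was -0.53. Signs turned under equal-sum scaling for Ass1 (0.14), Ckmt1 (0.66), Glud1 (other entry, 0.64), Got1 (0.39), Got2 (0.94), Gpt (0.82), Gpt2 (0.61), Mthfd2 (0.00), Phgdh (0.05), Psat1 (0.41), Psph (0.24), Shmt1 (0.59), Shmt2 (0.24), Slc38a2 (0.79), Slc3a2 (0.17), Slc6a9 (0.04), Slc7a1 (0.44) and Slc7a5 (0.06). Under implied totals they turned for Aldh18a1 (0.20), Ass1 (0.36), Bckdha (0.05), Bckdk (0.08), Ckmt1 (0.88), Glud1 (0.91), Got1 (0.62), Got2 (1.19), Gpt (1.08), Gpt2 (0.84), Mthfd2 (0.26), Phgdh (0.32), Psat1 (0.67), Psph (0.46), Shmt1 (0.79), Shmt2 (0.48), Slc38a2 (1.05), Slc3a2 (0.44), Slc6a9 (0.31), Slc7a1 (0.66), Slc7a4 (0.20) and Slc7a5 (0.32). These scalings moved the median of all genes to 0.96 and 1.16. The members' median was -1.13 by median-ratio scaling and -0.84 by quantile normalization. Further turns were Ckmt1 0.24, Gpt 0.25, Oat -0.21 and Slc38a2 0.17 among ASK and BSH titles, Glud1 -0.05 among BKD titles and -0.22 with its entries summed, Oat -0.12 by median-ratio scaling and -0.05 with the prefix as covariate, Got2 0.06 with sample weights, and Ckmt1 0.04, Gpt 0.52 and Oat -0.03 without labelled libraries 1 and 3. On leaving out single libraries Gpt ranged from -0.59 to 0.19, Got2 from -0.17 to 0.01 and Glud1 from -0.01 to 0.49. The cause of these changes was not tested. The Gata6 call was lost in 20 of 23 settings. Under 10 implied fragments stood behind at least 1 value, not always the lowest, of Bcat1, Slc3a1, Cbs, Slc43a1, Shmt1, Gnmt, Slc38a5 and Psph.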
